A study of Capra hircus with 9 samples.

Results

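A set of 10 genes of antigen presentation and the immunoproteasome, out of 21229 genes in the expression table, was followed in the submandibular glands of goats. They were chosen by name: *CD74*, *CIITA*, *B2M*, *TAP1*, *TAP2*, *TAPBP*, *PSMB8*, *PSMB9*, *PSMB10* and *NLRC5*. The table held 22 transcripts of these genes, and the transcripts were summed per gene. All 10 genes passed the filter on low counts in every comparison.

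RNA-seq of the whole gland had been carried out on 9 libraries, 3 from goats aged 1 month (kids), 3 from goats aged 12 months (adolescents) and 3 from goats aged 24 months (adults). All animals were healthy females of the Lubo breed from a single supplier, and no group was given a treatment of its own. Food and then water were withheld from every goat before sampling, and the glands were taken after general anaesthesia with xylazine hydrochloride. Each library came from a different goat, so age was compared between animals and not followed within them. The estimated counts summed to between 11546808 and 17586065 per library at 1 month, between 18231894 and 21065278 at 12 months and between 22040776 and 24901065 at 24 months.

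Cells display peptides on MHC molecules for T cells to inspect. Class I molecules carry peptides that the proteasome cuts in the cytosol and the TAP transporter moves into the endoplasmic reticulum, whereas class II molecules carry peptides made in endosomes and are mostly used by dendritic cells, macrophages, B cells and thymic epithelium. In immune cells and after interferon signalling, immunoproteasome subunits take the places of the constitutive catalytic subunits, and salivary glands are known for secreting antibody that local plasma cells make.

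The labels call every library submandibular gland, and the marker genes of other tissues were therefore read first. Salivary epithelium markers, 10 genes including the water channel *AQP5* and the antibody receptor *PIGR*, summed to 18318 to 21696 CPM (counts per 1000000 counts, with library sizes scaled by the TMM method) at 12 months and to 13960 to 20661 CPM at 24 months. *PIGR* alone made up most of each of these sums, at 12905 to 16477 CPM at 12 months and 8861 to 16179 CPM at 24 months. The sums thus follow this gene more than the rest of the list. At 1 month the same 10 genes summed to 2887, 771 and 2361 CPM in replicates 1, 2 and 3. The library labelled 1-month-old replicate 2 stood apart, with *AQP5* at 0.486 CPM and *PIGR* at 4.65 CPM, against 217 and 833 CPM in replicate 1 and 127 and 998 CPM in replicate 3. *SLC12A2*, *EPCAM*, *KRT7* and *ELF5* were also lowest in replicate 2 among the kids. The rest of the list went the other way. *KRT8* and *KRT19* were highest in replicate 2 (303 and 121 CPM), and *CDH1* and *KRT18* were lowest in replicate 3 (157 and 51.4 CPM).

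The T cell and thymocyte list, 13 genes including the recombinase genes *RAG1* and *RAG2*, summed to 3431, 12119 and 1707 CPM in the 3 libraries at 1 month. It summed to 11.8 to 20.6 CPM at 12 months and to 27.2 to 31.0 CPM at 24 months. *RAG1*, which developing lymphocytes use to join antigen receptor genes, was at 1516, 4176 and 644 CPM at 1 month and at no more than 0.818 CPM in any older library. Of 7 thymic epithelium markers found in the table, the sum was 203, 787 and 94.5 CPM at 1 month, 7.11 to 8.27 CPM at 12 months and 7.95 to 13.0 CPM at 24 months. In the older libraries most of this sum was *DLL4*, at 5.19 to 6.63 CPM at 12 months and 5.84 to 10.0 CPM at 24 months. *FOXN1*, the defining transcription factor of thymic epithelium, was at 15.7, 79.0 and 5.50 CPM at 1 month and at 0.103 CPM or less later. Defining markers of thymus were thus present in all 3 libraries labelled as gland of 1-month-old goats, with both sums highest in replicate 2.

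**Figure D1:**
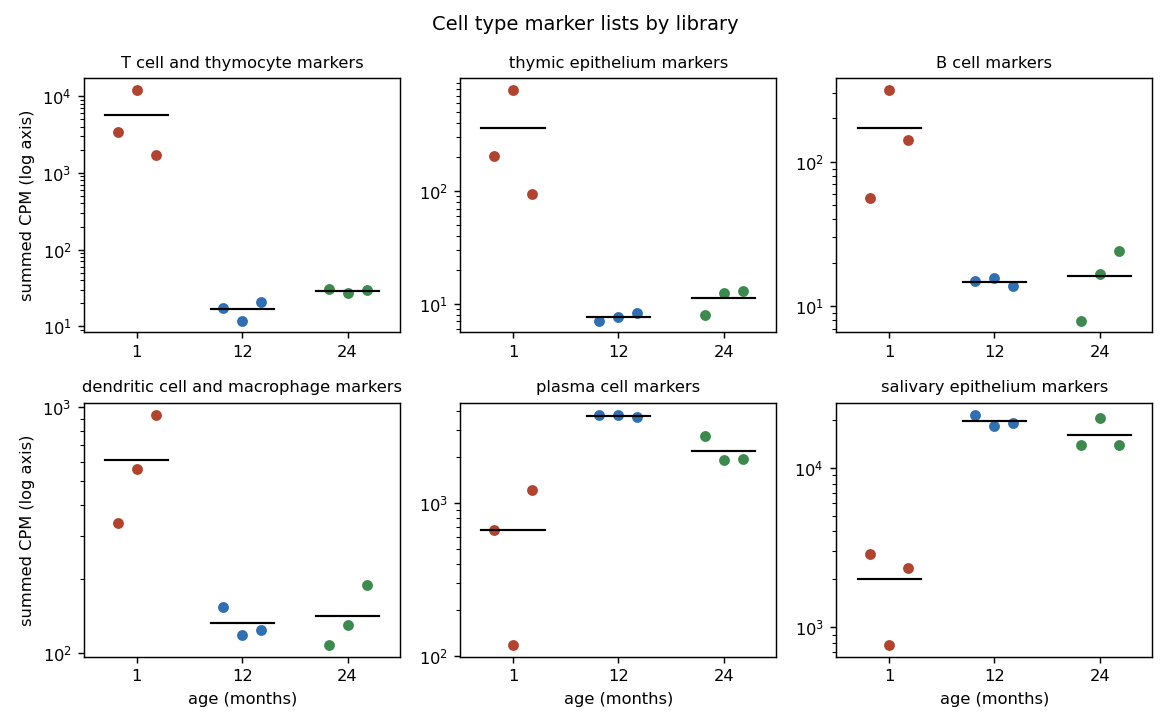
Summed CPM of 6 cell type marker lists (y axis, log scale) by age in months (x axis), with 1 point per library (replicates 1 to 3 from left to right) and a line at the mean of 3. The T cell and thymocyte sum lies between 1707 and 12119 CPM at 1 month and at no more than 31.0 CPM later. The salivary epithelium sum, though not each of its genes, is lowest in replicate 2 at 1 month, at 771 CPM.

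The lists of other immune cells were read in the same way. B cell markers summed to 56.1 to 315 CPM at 1 month, 13.8 to 15.7 CPM at 12 months and 7.95 to 23.9 CPM at 24 months. Dendritic cell and macrophage markers summed to 338, 561 and 934 CPM at 1 month, highest in replicate 3, to 119 to 153 CPM at 12 months and to 108 to 188 CPM at 24 months. Plasma cell markers had sums of 117 to 1222 CPM at 1 month, 3649 to 3801 CPM at 12 months and 1925 to 2757 CPM at 24 months. Passing in edgeR's quasi-likelihood test as lower at 12 and at 24 months were 13 and 13 of 13 T cell and thymocyte markers, 5 and 5 of 6 thymic epithelium markers tested, 6 and 6 of 8 B cell markers and 8 and 6 of 11 dendritic cell and macrophage markers tested, against 12.1% and 10.9% of all genes. None of 6 plasma cell markers passed, 2 of 10 salivary epithelium markers were higher at each age (6.81% and 7.4% of all genes were), and no endothelium or skeletal muscle marker passed. The part that these shifts in cell markers had in the values of the antigen presentation genes was not tested. In such bulk samples, fewer cells of a type and less RNA per cell cannot be told apart.

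Of the 10 genes, 8 were lower at 12 months than at 1 month: *CD74*, *CIITA*, *TAP1*, *TAP2*, *PSMB8*, *PSMB9*, *PSMB10* and *NLRC5*. *B2M* and *TAPBP* did not pass the test. The decreases ran from 5.23-fold for *TAP1* to 12.4-fold for *CIITA*, and all 8 also exceeded the limit of 2 on the log2 scale that the study applied. Passing means an adjusted p under 0.05 in edgeR's quasi-likelihood test with Benjamini-Hochberg adjustment over 14683 genes, of which 12.1% were lower at 12 months by this rule and 9.68% with the limit on the fold change added. The 10 genes had a median log2 fold change of -2.49, and all genes tested one of -0.02.

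At 24 months, 7 of the 10 genes were lower than at 1 month, all of the 8 except *CD74*. The share of all 14743 genes tested that was lower at 24 months was 10.9%, or 9.39% with the fold limit, which 4 of the 7 passed (*CIITA*, *PSMB8*, *PSMB9* and *PSMB10*). The 10 genes had a median log2 fold change of -1.69, and all genes one of -0.01. Both comparisons use the same 3 libraries at 1 month, so they are not independent of each other. In each of them the 3 older libraries lay below all 3 libraries at 1 month for 8 of the 10 genes, *CD74* included, as they did for 26.6% of all genes at 12 months and 23.2% at 24 months.

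The calls were lost when single older libraries were left out. Without 12-month-old replicate 1, 2 or 3, none of the 10 genes passed against 1 month in the quasi-likelihood test while 8 still had an unadjusted p under 0.05. Their fold changes stayed close. *CIITA* lay between -3.72 and -3.47 and *TAP1* between -2.49 and -2.30 on the log2 scale, with adjusted p of 0.0543 to 0.124 over the 8 genes. Against 24 months, 1 gene (*PSMB8*) passed without 24-month-old replicate 1, none without replicate 2 or 3 (7 with an unadjusted p under 0.05 in each of these fits), and 4 without 1-month-old replicate 3. Without 1-month-old replicate 2, the library that stood apart, the counts were again 8 and 7. Calls over all genes moved too. Without 12-month-old replicates 1, 2 and 3, 114, 149 and 123 genes passed as lower, against 1778 in the main fit. At 24 months they were 976, 493 and 292 without 24-month-old replicates 1, 2 and 3, against 1605, and 1308 without 1-month-old replicate 3. Without 1-month-old replicate 2 they were 3427 of 14993 genes tested at 12 months and 2273 of 15110 at 24 months.

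Without that library the log2 fold changes of the 8 genes at 12 months ran from -1.85 for *CD74* to -2.92 for *CIITA*, and those of the 7 genes at 24 months from -1.32 for *TAP2* to -2.36 for *CIITA*. The 1-month libraries that remained still held the T cell and thymocyte markers at 3431 and 1707 CPM.

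**Figure D2:**
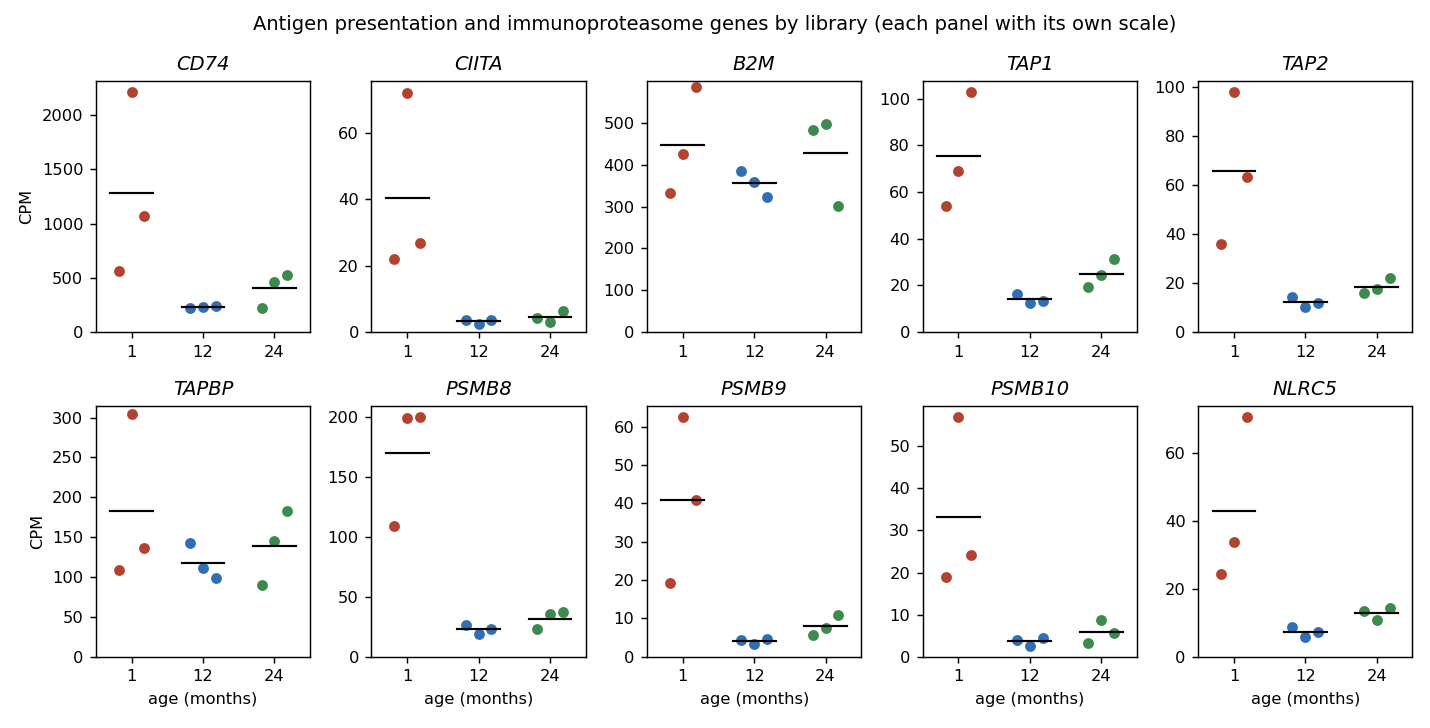
CPM (y axis, a scale of its own in each panel) of the 10 antigen presentation and immunoproteasome genes by age in months (x axis), with 1 point per library (replicates 1 to 3 from left to right) and a line at the mean of 3. In 8 panels all older libraries lie below all libraries at 1 month, whereas *B2M* and *TAPBP* overlap between ages.

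The regulators come first. *CIITA* encodes the coactivator on which transcription of MHC class II genes depends. It was at 22.0, 72.1 and 26.7 CPM at 1 month, at 3.53, 2.54 and 3.65 CPM at 12 months and at 4.15, 2.95 and 6.22 CPM at 24 months. Every older library was below every library at 1 month, and replicate 2 was the highest at 1 month. Its log2 fold change was -3.63 ± 0.577 (SE, adjusted p = 0.0116 in edgeR's quasi-likelihood test) at 12 months and -3.11 ± 0.61 (adjusted p = 0.0136) at 24 months, the largest decrease of the 10 genes in both comparisons.

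*NLRC5* encodes the related coactivator that drives MHC class I genes and their partners. Its levels were 24.3, 33.9 and 70.7 CPM at 1 month, 8.92, 5.75 and 7.21 CPM at 12 months and 13.4, 10.8 and 14.3 CPM at 24 months. Unlike *CIITA*, it was highest at 1 month in replicate 3, and no older library reached the lowest value at 1 month. The log2 fold change was -2.51 ± 0.456 (adjusted p = 0.0153) at 12 months and -1.64 ± 0.467 (adjusted p = 0.0432) at 24 months.

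Different transcripts of the regulators were counted. The main *CIITA* transcript, XM_018040961.1, held 66.4% of the gene's summed CPM over the 9 libraries. A further RefSeq model, XM_018040960.1 with 17.2%, was at 4.45, 11.9 and 7.54 CPM at 1 month, at 0.82 CPM in 12-month-old replicate 3 and at 0 in the other 5 older libraries. *NLRC5* was spread over 7 transcripts, of which XM_018062026.1 held 51.1%, the assembled transcript TCONS_00052460 15.9% and XM_018062029.1 12.1%. Estimated counts are divided among overlapping transcripts of a gene by a model, so a transcript listed at 0 may have lost its reads to another.

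*CD74* encodes the invariant chain, which blocks the class II groove and takes class II molecules to endosomes. Its levels were 565, 2213 and 1069 CPM at 1 month, 219, 229 and 240.1 CPM at 12 months and 224, 464 and 525 CPM at 24 months. The groups did not overlap, but the spread at 1 month was wide (mean 1282 ± 845 CPM, SD, n = 3), and 24-month-old replicate 3 came close to the lowest kid. The log2 fold change was -2.47 ± 0.57 (adjusted p = 0.0295) at 12 months and -1.58 ± 0.656 at 24 months, where the adjusted p of 0.126 did not pass, while DESeq2's Wald test gave 0.0364 and a single edgeR fit over all 9 libraries 0.0358. Without 1-month-old replicate 2, the highest library, the log2 fold change at 24 months was -0.91 (adjusted p = 0.148 in the quasi-likelihood test). The 2 *CD74* transcripts kept similar shares, with the main one, XM_018050159.1, at 82.0% of the gene's CPM at 1 month, 81.4% at 12 months and 78.1% at 24 months.

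*TAP1* and *TAP2* encode the subunits of the transporter that brings cytosolic peptides to class I molecules. *TAP1* was at 54.2, 69.2 and 103 CPM at 1 month, 16.3, 12.4 and 13.4 CPM at 12 months and 19.2, 24.6 and 31.4 CPM at 24 months. *TAP2* was at 36.0, 97.9 and 63.4 CPM at 1 month, 14.2, 10.4 and 11.7 CPM at 12 months and 15.9, 17.6 and 22.2 CPM at 24 months. In both genes the 3 ages formed separate ranges, highest at 1 month and lowest at 12 months, although the partners peaked in different kids, *TAP1* in replicate 3 and *TAP2* in replicate 2. At 12 months *TAP1* was 5.23-fold lower than at 1 month (log2 -2.39 ± 0.318, adjusted p = 0.00844) and *TAP2* 5.35-fold lower (log2 -2.42 ± 0.432, adjusted p = 0.0148). At 24 months the decreases were 2.79-fold (log2 -1.48 ± 0.401, adjusted p = 0.0366) and 3.33-fold (log2 -1.74 ± 0.461, adjusted p = 0.0344).

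The class I light chain and the loading chaperone did not pass at either age. *B2M*, the light chain shared by all class I molecules, was at 332, 426 and 586 CPM at 1 month, 384, 359.9 and 323 CPM at 12 months and 483, 498 and 302 CPM at 24 months. The 3 ages overlapped, with log2 fold changes of -0.29 ± 0.318 (adjusted p = 0.516) at 12 months and 0.04 ± 0.444 (adjusted p = 0.963) at 24 months, the latter of which turned to values between -0.12 and -0.04 under other scalings and fits. *TAPBP* encodes tapasin, which holds class I molecules at the transporter until a peptide fits. It was at 109, 304 and 136 CPM at 1 month, 143, 112 and 98.8 CPM at 12 months and 89.4, 145 and 183 CPM at 24 months, and the ranges overlapped. Its log2 fold change was -0.63 ± 0.462 (adjusted p = 0.343) at 12 months and -0.31 ± 0.533 (adjusted p = 0.717) at 24 months, and without 1-month-old replicate 2, the highest of its libraries, -0.07 and 0.28. In the RefSeq annotation *TAPBP* overlaps *ZBTB22*, and the sources used here do not give whether strand was used in counting.

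**Figure D3:**
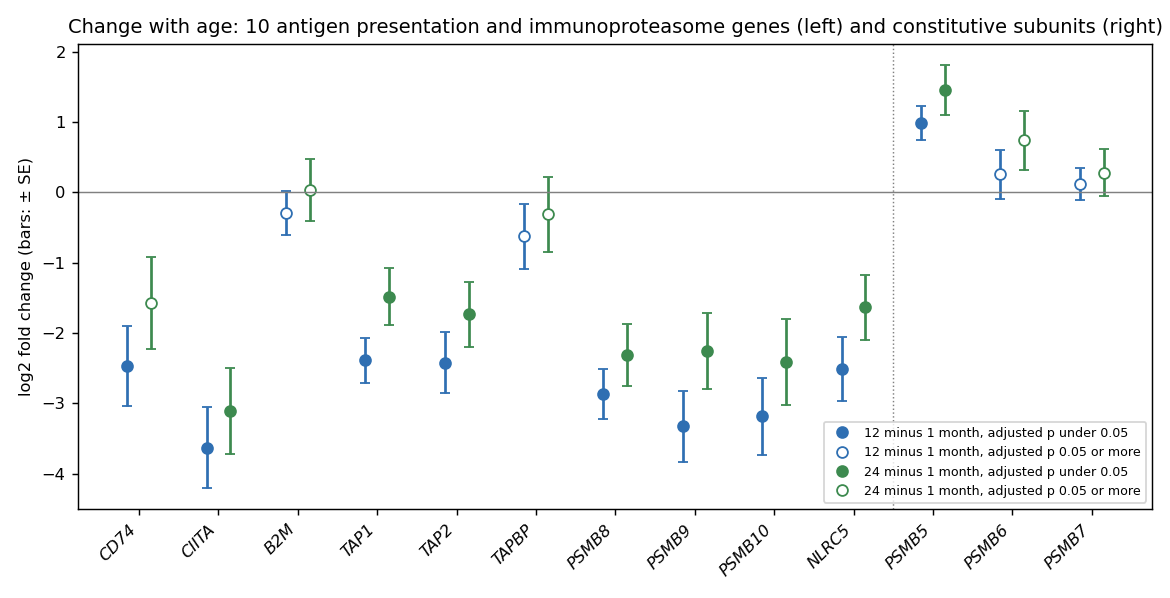
Log2 fold change against 1 month (y axis, bars ± SE) at 12 months (blue) and 24 months (green) for the 10 genes and 3 constitutive proteasome subunits (x axis), with filled points for an adjusted p under 0.05 in edgeR's quasi-likelihood test. Filled points of the 10 genes lie between -3.63 and -1.48, *B2M* and *TAPBP* are open, and *PSMB5* lies above 0 at 0.99 and 1.45.

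*PSMB8*, *PSMB9* and *PSMB10* encode the catalytic subunits of the immunoproteasome, which cuts peptides with ends that suit class I molecules. *PSMB8* was at 109, 199 and 200.1 CPM at 1 month, 26.4, 19.2 and 22.9 CPM at 12 months and 22.9, 35.2 and 37.2 CPM at 24 months. *PSMB9* was at 19.3, 62.5 and 40.8 CPM at 1 month, 4.32, 3.26 and 4.53 CPM at 12 months and 5.73, 7.54 and 10.9 CPM at 24 months. *PSMB10* was at 18.9, 56.9 and 24.0 CPM at 1 month, 4.03, 2.54 and 4.35 CPM at 12 months and 3.27, 8.79 and 5.55 CPM at 24 months. For all 3 genes every older library was below the lowest library at 1 month.

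The decreases at 12 months were 7.27-fold for *PSMB8* (log2 -2.86 ± 0.354, adjusted p = 0.00764), 10.0-fold for *PSMB9* (log2 -3.33 ± 0.507, adjusted p = 0.0107) and 9.08-fold for *PSMB10* (log2 -3.18 ± 0.547, adjusted p = 0.0138). At 24 months they were 4.96-fold for *PSMB8* (log2 -2.31 ± 0.442, adjusted p = 0.0128), 4.78-fold for *PSMB9* (log2 -2.26 ± 0.541, adjusted p = 0.025) and 5.31-fold for *PSMB10* (log2 -2.41 ± 0.611, adjusted p = 0.0301). *PSMB8* had the smallest adjusted p of the 10 genes in both comparisons. Its main transcript, XM_018038902.1, held 89.8% of the gene's CPM at 1 month, 93.5% at 12 months and 86.2% at 24 months.

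None of the 3 constitutive subunits that these replace passed as lower, and 1 passed as higher at both ages, as did 6.81% of all genes at 12 months and 7.4% at 24 months. *PSMB5*, the counterpart of *PSMB8*, was at 29.8, 31.7 and 30.8 CPM at 1 month, 69.1, 50.4 and 59.1 CPM at 12 months and 59.8, 89.5 and 85.7 CPM at 24 months. It rose at 12 months (log2 0.99 ± 0.238, adjusted p = 0.0331) and at 24 months (log2 1.45 ± 0.356, adjusted p = 0.0266), with no overlap between kids and older goats. *PSMB6*, the counterpart of *PSMB9*, and *PSMB7*, the counterpart of *PSMB10*, did not pass in either comparison, with log2 fold changes of 0.26 and 0.74 for *PSMB6* and of 0.12 and 0.28 for *PSMB7*. Of 11 further subunits of the core particle, none passed the quasi-likelihood test at 12 or 24 months, 2 had an unadjusted p under 0.05 at 12 months and 0 did at 24 months, and their median log2 fold change was -0.34 and -0.32.

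Each immunoproteasome subunit was also set against its counterpart within the same library. The CPM ratio of *PSMB8* to *PSMB5* was 3.66, 6.27 and 6.51 at 1 month, 0.381, 0.382 and 0.387 at 12 months and 0.383, 0.394 and 0.434 at 24 months. The older libraries thus held a nearly constant ratio, and on the log2 scale of CPM + 1 the mean of the 6 older libraries differed by -3.69 from that of the kids, a 12.9-fold lower ratio. The ratio of *PSMB9* to *PSMB6* was 0.35, 0.643 and 0.722 at 1 month and 0.0448 to 0.0888 in the older libraries, a log2 difference of -2.97. The ratio of *PSMB10* to *PSMB7* was 0.711, 2.03 and 0.902 at 1 month and 0.0977 to 0.256 in the older libraries, a log2 difference of -2.62. With 0.1 CPM added in place of 1, the 3 differences were -3.75, -3.16 and -2.85.

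For each of the 3 ratios the groups did not overlap, and the two-sided exact permutation test of 3 kids against 6 older goats gave p = 0.0238, the smallest that this design allows (0.0238 after adjustment over the 3 ratios). *PSMB8*, *PSMB9* and *PSMB10* were already without overlap by themselves, as were 26.6% of all genes at 12 months and 23.2% at 24 months in this direction. The ratio tests are therefore not independent of that result. Without any one of 1-month-old replicates 1, 2 and 3 the same exact permutation test gave p = 0.0714 for each ratio, the smallest that 2 kids against 6 older goats allow, so that this design could not pass. With single libraries of any age left out the differences ranged from -3.95 to -3.54, from -3.28 to -2.78 and from -2.91 to -2.18. The ratio of subunits per cell cannot be read from CPM, which is not divided by transcript length.

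**Figure D4:**
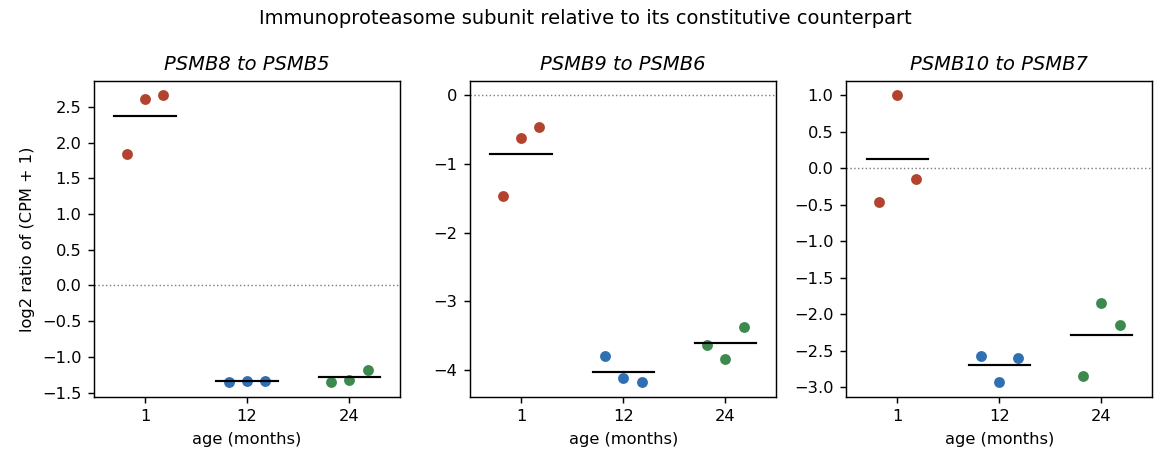
Log2 ratio of (CPM + 1) of each immunoproteasome subunit to its constitutive counterpart (y axis) by age in months (x axis), with 1 point per library (replicates 1 to 3 from left to right), a line at the mean of 3 and a dotted line at a ratio of 1. The mean *PSMB8* to *PSMB5* log2 ratio is 2.37 at 1 month, -1.35 at 12 months and -1.28 at 24 months.

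*PSMB11* encodes the thymoproteasome subunit, which is made in the cortical epithelium of the thymus. It was at 1.93, 6.08 and 0.852 CPM at 1 month, at 0 in all 3 libraries at 12 months and at 0.117, 0 and 0 CPM at 24 months. It passed as lower at both ages in the quasi-likelihood test (adjusted p = 0.0264 and 0.0177). Its mean at 1 month, 2.95 CPM, was 17.9-fold above a floor of 3 counts per library at 12 months (0.165 CPM). Replicates 1 and 3 lay closer to that floor than the mean did. *PSMB11* is also counted among the thymic epithelium markers, and it was highest in 1-month-old replicate 2.

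MHC genes themselves were counted from the product names in the table. Goat class I and class II genes are families of near-identical copies, so the reads of single genes are uncertain and sums are given first. The 12 class II genes summed to 393, 769 and 690.3 CPM at 1 month, 182, 178 and 162 CPM at 12 months and 281, 276 and 251 CPM at 24 months. These 3 ranges did not overlap, with kids highest and adolescents lowest, and the log2 sum of the 6 older goats fell by 1.46 against the kids (two-sided exact permutation test, p = 0.0238, the smallest possible). Of the 11 class II genes tested, 9 were lower at 12 months and 6 at 24 months, where 12.1% and 10.9% of all genes were, and 0 were higher.

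The class II gene with the most reads, *LOC102189356* (DR alpha chain), was at 273, 543 and 509 CPM at 1 month, 112, 114 and 124 CPM at 12 months and 149, 181 and 171 CPM at 24 months. *LOC102180664* (DQB beta chain) was at 42.0, 78.9 and 59.9 CPM at 1 month, 21.5, 17.1 and 13.9 CPM at 12 months and 47.8, 39.1 and 45.9 CPM at 24 months, so that kids and adults overlapped. *LOC102187998* (DM beta chain, which helps to exchange peptides on class II molecules) was at 22.4, 55.6 and 40.7 CPM at 1 month, 6.60 to 8.56 CPM at 12 months and 10.6 to 15.6 CPM at 24 months. All 3 genes had separate ranges at 12 and 24 months, with adults higher, as was the case for 7.78% of all genes in this direction. *LOC102179937* (DQ haplotype D alpha chain), the next by reads, overlapped between these ages. Among class II genes with fewer reads, *LOC102187356* (DO beta chain) was also higher in adults without overlap, and *LOC102186442* (DR-1 beta chain) was lower without overlap.

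The 20 class I genes summed to 775, 878 and 1672 CPM at 1 month, 559, 582 and 331 CPM at 12 months and 623, 710.4 and 835 CPM at 24 months. Kids and adults overlapped, and the log2 sum of the 6 older goats fell by 0.84 against the kids (two-sided exact permutation test, p = 0.0476). Of the 15 class I genes tested, 5 were lower at 12 months, 2 at 24 months and 0 were higher, beside 12.1% and 10.9% of all genes that were lower, so that the count at 24 months was near that of genes at large. The genes with the most reads, *LOC102181202*, *LOC102188814*, *LOC108633459* and *LOC108633505*, had log2 fold changes at 12 months of -1.19, -1.17, -1.35 and -0.80, and none of the 4 passed in the quasi-likelihood test, while *LOC102188814* alone had an unadjusted p under 0.05 (0.0364).

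**Figure D5:**
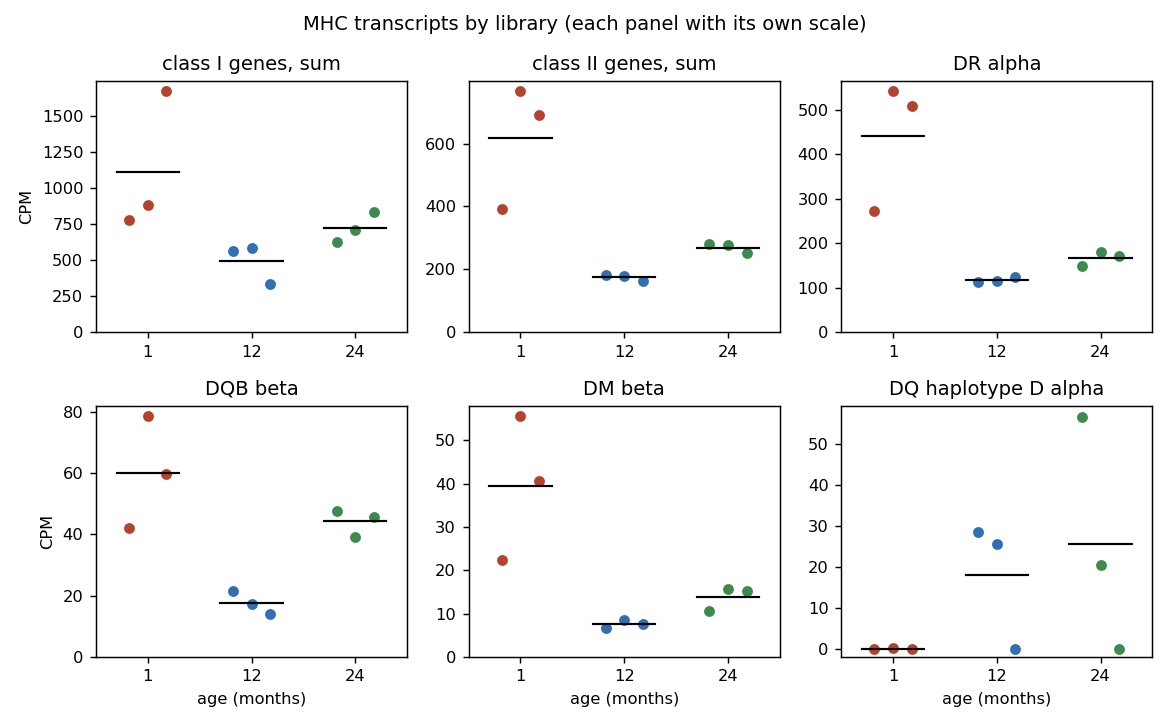
CPM (y axis, a scale of its own in each panel) of all class I genes and all class II genes summed, and of 4 single class II genes, by age in months (x axis), with 1 point per library (replicates 1 to 3 from left to right) and a line at the mean of 3. The class II sum is 393 to 769 CPM at 1 month, 162 to 182 CPM at 12 months and 251 to 281 CPM at 24 months, and the DQ haplotype D alpha chain is near 0 in 5 of the 9 libraries.

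Several of the genes lie side by side. In the RefSeq annotation of assembly ARS1.2, used here for names and order only, *PSMB9*, *TAP1*, *PSMB8*, the non-coding RNA *LOC108633470* and *TAP2* follow each other within the MHC, and *LOC102187998*, the DM beta chain, is the neighbour on the side of *PSMB9*. All 5 protein-coding genes of this row were lower at 12 months, by 2.37 to 3.33 on the log2 scale, beside 12.1% of all genes. *PSMB9*, *TAP1*, *PSMB8* and *TAP2* are among the 10 genes already counted. *LOC102180357*, the next gene beyond *TAP2*, is not described here. *PSMB10*, *CIITA*, *NLRC5*, *CD74* and *B2M* have other neighbours.

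Among the proteins that load and trim class I peptides, 12 genes, 2 were lower and 1 was higher at both ages, close to the shares of all genes (12.1% lower and 6.81% higher at 12 months, 10.9% and 7.4% at 24 months). The trimming peptidase genes of the endoplasmic reticulum, *ERAP1* and *ERAP2*, fell by 2.30 and 1.44 on the log2 scale at 12 months and by 2.25 and 1.46 at 24 months. *SEC61A1*, a channel subunit for secreted proteins, rose by 1.46 at 12 months and passed as higher at 24 months too. The loading chaperones *CALR*, *CANX* and *PDIA3* did not pass at 12 months (log2 0.90, 0.81 and 0.60). Of 5 genes around the proteasome activators, *PSME1* and *PSME2*, which encode the interferon-inducible activator, fell by 1.58 and 1.18 at 12 months (12.1% of all genes were lower), and 0 of the 5 passed at 24 months in the quasi-likelihood test, where 1 had an unadjusted p under 0.05.

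Of 8 factors that build the class II promoter complex, *NFYA*, a subunit of the CCAAT-binding factor, was the 1 that passed, with a log2 fold change of -1.47 at both ages, a count near the share of all genes that was lower (12.1% and 10.9%). *RFX5*, *RFXANK* and *RFXAP*, whose products recruit *CIITA*'s protein to the promoter, did not pass (log2 -0.74, -1.47 and 0.16 at 12 months). Of 10 genes for endosomal processing, again a count near that share, *CTSH*, a cathepsin gene, fell by 2.98 at 12 months and by 2.37 at 24 months, whereas *CTSS* and *IFI30* did not pass (log2 -1.51 and -0.49 at 12 months).

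The interferon gamma axis, the signal best known to induce these genes, was represented by 11 genes, 10 of them tested. *IRF1*, *IRF2*, *IRF8*, *SOCS1* and *SOCS3* were lower at 12 months and *IRF1*, *IRF8* and *SOCS3* at 24 months, beside 12.1% and 10.9% of all genes, and none was higher. The median log2 fold change of the 10 genes was -1.37 and -1.35. *IRF1*, an interferon-induced activator of class I and proteasome genes, was at 54.2, 125 and 86.7 CPM at 1 month, 14.6, 9.83 and 12.4 CPM at 12 months and 20.9, 25.0 and 25.8 CPM at 24 months. *SOCS3*, an inhibitor of cytokine signalling, fell by 4.56 and 4.02 on the log2 scale. The ligand gene *IFNG* was at 0 in 8 libraries and at 0.0276 CPM in 1-month-old replicate 3, under the floor of 3 counts, and the receptor genes *IFNGR1* and *IFNGR2* did not pass (log2 -0.04 and -0.26 at 12 months).

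Among 6 genes for lipid and MHC-like presentation, *CD1D*, *CD1E* and *LOC102190537* (the *MR1* gene, found by its product) were lower at both ages, beside 12.1% and 10.9% of all genes, and 3 did not pass. *CD1E*, a lipid transfer protein of dendritic cells and thymocytes, was at 102, 279 and 41.1 CPM at 1 month and at 0.166 to 2.61 CPM in the older libraries. *CD1D*, which shows lipids to natural killer T cells, was at 33.3, 49.4 and 19.2 CPM at 1 month and at 0 to 2.93 CPM later. Both had the order of the T cell and thymocyte sum over the kids, with replicate 2 highest and replicate 3 lowest.

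Between 12 and 24 months none of the 10 genes passed in edgeR's quasi-likelihood test, and 0 of the 14106 genes tested did. DESeq2's Wald test called 25 genes and edgeR's exact test 24, with none of the 10 among them. At an unadjusted p under 0.05, *CD74*, *TAP1*, *TAP2*, *PSMB9* and *NLRC5* were higher at 24 months, 5 of 10, as were 8.76% of all genes (1624 genes in either direction). *TAP1*, *TAP2*, *PSMB9* and *NLRC5* did not overlap between these ages, as was the case for 7.78% of all genes in this direction. All 10 fitted values were above 0, from 0.29 for *TAPBP* to 1.05 for *PSMB9* on the log2 scale, as were 52.3% of all genes, with a median of 0.71 over the 10 genes and of 0.04 over all.

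This comparison turned on 24-month-old replicate 1. Without it 6 of the 10 genes passed as higher at 24 months: *CD74*, *TAP1*, *TAP2*, *PSMB8*, *PSMB9* and *NLRC5*. Their log2 fold changes ran from 0.73 to 1.25 and their adjusted p from 0.00776 to 0.0408 in the quasi-likelihood test. Of all 14366 genes tested in that fit 4788 passed, 2672 as higher and 2116 as lower. That library had the lowest values at 24 months of *CD74*, *TAP1*, *TAP2*, *TAPBP*, *PSMB8*, *PSMB9* and *PSMB10*. With any other single library left out none of the 10 genes passed, and 1 to 4 had an unadjusted p under 0.05.

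At 1 month the kids differed among themselves. *CD74*, *CIITA*, *TAP2*, *TAPBP*, *PSMB9* and *PSMB10*, 6 genes, were highest in replicate 2, and *B2M*, *TAP1*, *PSMB8* and *NLRC5*, 4 genes, in replicate 3, where *PSMB8* was within 1.26 CPM of replicate 2. Replicate 1 was the lowest kid for all 10 genes. The B cell sum had the order of the 6 genes over the kids (56.1, 315 and 141 CPM), and the dendritic cell and macrophage sum that of the 4 (338, 561 and 934 CPM). The T cell and thymic epithelium sums were also highest in replicate 2 but lowest in replicate 3, an order that none of the 10 genes had. The part of these cells in the values of the 10 genes was not tested. Correlations of log2 values between the kids over 14855 genes were 0.804 to 0.942, against 0.961 to 0.967 at 12 months and 0.919 to 0.959 at 24 months.

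The likeness of profiles was measured as the root-mean-square difference of log2(CPM + 1) over the 9 libraries after each gene was centred on its mean, among 13989 genes. Of the pairs within the 10 genes, *NLRC5* and *TAP1* were most alike (0.23), followed by *PSMB8* and *PSMB9* (0.274) and by *CD74* and *TAP2* (0.299). The genes nearest to *CIITA* were *LPXN* (0.156), *PDLIM2* (0.193) and *CBL* (0.223), those nearest to *CD74* were *RHOG* (0.199), *MYO9B* (0.205) and *SH3BP1* (0.213), and *NKG7* (0.215) was nearest to *TAP1*. *CYTH4* (0.193) was nearest to *PSMB8*, *TLR9* (0.195) to *TAP2*, *TBXAS1* (0.253) to *NLRC5* and *ANKS3* (0.116) to *TAPBP*. These values are descriptions over libraries that share the same age difference.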

How the data were processed

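Total RNA of 9 submandibular glands was sequenced after removal of ribosomal RNA. The authors removed residual ribosomal reads with Bowtie2 (2.2.8), aligned the rest to a goat genome with TopHat2 (2.1.1), assembled transcripts with Cufflinks and deposited expected counts per transcript from RSEM, neither scaled for depth nor for length. The genome build and the strand setting are not given in the sources used here. The table held 52739 transcripts (42686 known, of which 42652 or 99.92% matched RefSeq, and 10053 new), summed here to 21229 genes and rounded. Of the listed genes, 4 were found under another symbol or by product.

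Each pair of ages was fitted on its 6 libraries with edgeR 4.0.16 (R 4.3.3; filterByExpr, TMM, quasi-likelihood test, Benjamini-Hochberg adjustment over all genes tested); SE is the log2 fold change divided by the root of F. CPM used TMM library sizes over 9 libraries, and 3 counts equal 0.146 to 0.189 CPM. Ratios were tested with exact permutation tests (scipy 1.17.1, pseudocount 1). On simulated data (14683 genes, 1 versus 12 months) the quasi-likelihood test recovered 13.7% of 95 genes changed by 2 on the log2 scale. It recovered 71.4% of 105 genes changed by 3, with 3 false calls. In the data themselves 2778 genes passed, and the adjustment depends on how many genes change, so these rates need not carry over.

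The genes, the lists and the rule for naming others (up to 3 passing genes per list and comparison by fold change, transcripts with at least 10% of a gene's CPM, the 4 MHC genes of each class with the highest CPM, the 3 nearest profiles) were chosen with earlier results of these data known. Genes of a list that are named although they did not pass were chosen after their values were seen. Alternatives were DESeq2 1.42.0, the exact test, other scalings and filters, one fit of all libraries, RefSeq rows only, a replicate block and leaving out each library.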

Additional observations from a re-analysis of the deposited data

How the results depend on the processing

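Under the other scalings, filters, tests and row sets, 8 of the 10 genes passed at 12 months and 7 or 8 at 24 months; with the limit of 2 on the log2 scale added, 8 and 4 did. Leaving out single libraries gave 0 to 8 genes at 12 months, 0 to 7 at 24 months and 0 to 6 between 12 and 24 months, and 128 to 6684, 343 to 4461 and 0 to 4788 of all genes; the cause was not tested. Among all genes at 12 months, 2778 passed, against 1747 with the fold limit, 4767 with DESeq2's Wald test and 4220 with edgeR's exact test. At 24 months 2696 passed, against 4108 with DESeq2 and 4452 in one fit of all 9 libraries, and between 12 and 24 months 0 passed, against 25 with DESeq2, 24 with the exact test and 2 with no filter on low counts. Library sizes without the 100 most abundant genes changed the split of all calls from 1778 lower and 1000 higher to 1855 and 447 at 12 months and from 1605 and 1091 to 1655 and 620 at 24 months, with the median of all genes at 24 months moving from -0.01 to -0.12. *B2M* at 24 months was at 0.04 on the log2 scale and changed sign with DESeq2 size factors (-0.040), upper-quartile scaling (-0.068), library sizes without the 100 most abundant genes (-0.077), DESeq2's Wald test (-0.0405), one fit of all libraries (-0.083), RefSeq rows only (-0.12) and single libraries left out (-0.16 to 0.25). *TAPBP* with single libraries left out lay between -0.60 and 0.28 at 24 months and between -0.0025 and 0.53 from 12 to 24 months. The log2 ratio differences with 1 library left out were -3.95 to -3.54 for *PSMB8*, -3.28 to -2.78 for *PSMB9* and -2.91 to -2.18 for *PSMB10*. Depth limits the precision of *CIITA*, *PSMB9* and *PSMB10*, which had as few as 46.2 counts in a library.

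The libraries share replicate numbers but come from different goats, so the numbers do not pair them. The deviations of same-numbered libraries correlated by -0.187 to 0.356. Those values alone could not decide this, because differently numbered libraries were not set beside them. With the replicate block, 6 of the 10 genes passed at 12 months (*CD74* at adjusted p = 0.0825 and *TAP2* at 0.0546 did not), 6 at 24 months (*NLRC5* at 0.0573 did not) and 0 between 12 and 24 months, with 1023, 2404 and 13 of all genes.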

Other observations

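A class II gene, *LOC102179937* (DQ haplotype D alpha chain), split the libraries in a way that age did not follow. It was at 28.4 and 25.5 CPM in 12-month-old replicates 1 and 2 and at 56.4 and 20.3 CPM in 24-month-old replicates 1 and 2, and it was listed at 0 in replicate 3 of both ages. In the kids it was at 0, 0.0345 and 0 CPM. Another DQ alpha gene, *LOC102186727*, was at 3.19, 14.6 and 1.04 CPM in the kids and at 0 in all 6 older libraries. Its mean in the kids, 6.26 CPM, was 38.0-fold above a floor of 3 counts per library at 12 months and 40.5-fold at 24 months. That mean rested mostly on replicate 2, and replicates 1 and 3 lay closer to the floor. Both genes were chosen after their values were seen, and reads of such copies may be divided between genes.

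The assembled *NLRC5* transcript TCONS_00052460 was uneven as well, with 3.70, 1.14 and 18.9 CPM in the kids, 0.953, 0 and 0 CPM at 12 months and 5.34, 0 and 0 CPM at 24 months, while the main transcript XM_018062026.1 was present in all 9 libraries at 2.23 to 29.0 CPM.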
